A study of Mus musculus with 4 samples.

Results

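The comparison was between cells given siRNA against Sirt6 and then tumour necrosis factor (TNF) and cells given a control siRNA and then TNF, with 1 RNA-seq library on each side. Genes were described where the 2 libraries held at least 200 reads on average, which 10161 of the 29179 genes in the table did. These genes held 98.0% of the reads of the Sirt6 siRNA library and 97.9% of those of the control siRNA library. Among genes with a mean of 200 reads, 2700062C07Rik (216 and 184 reads), Areg (206 and 194) and D2hgdh (211 and 189), lay just inside this limit, the Sirt6 siRNA library given first. Just outside it, at a mean of 199.5 reads, were genes such as 5730409E04Rik (207 and 192), Atad2b (195 and 204) and Ccdc112 (219 and 180).

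The cells were YAMC, a conditionally immortalised mouse line labelled as young adult colonocytes, at passages 10 to 12. Before the experiment they grew at 33 °C with interferon-γ, the permissive state of this line. All groups were transfected with 50 nM siRNA by lipofectamine and later moved to 37 °C without interferon-γ. From 48 h after transfection the Sirt6 siRNA with TNF group and the control siRNA with TNF group had TNF at 100 ng/mL for 24 h. A Sirt6 siRNA group and a control siRNA group had medium without TNF for the same 24 h and served as a second, separate pair. The labels give no further replicate, no second siRNA against Sirt6 and no siRNA sequence, so effects of Sirt6 loss and other effects of this siRNA cannot be told apart. Each group was 1 library, so every ratio compares libraries and has no replicate check.

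Sirt6 is a nuclear, chromatin-bound member of the sirtuin family, enzymes that use NAD to remove acyl groups from proteins. It deacetylates histone H3 at lysines near gene starts and has been described as a restraint on genes of glycolysis, on NF-kB target genes and on lipid synthesis genes, and as a factor in DNA double-strand break repair. TNF acts through its receptors on NF-kB and on MAP kinases that feed AP-1, and in the colon it is a main cytokine of inflammation.

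Sirt6 (ENSMUSG00000034748) had 150 reads in the Sirt6 siRNA with TNF library and 352 in the control siRNA with TNF library, against 171 and 388 in the medium pair. In normalised RPM (reads scaled to library size by TMM), this was 7.03 with Sirt6 siRNA and TNF and 18.8 with control siRNA and TNF. The level with Sirt6 siRNA was 37.7% of control with TNF (95% counting interval 30.7 to 45.4). Of the other sirtuins, 2 averaged at least 200 reads over the TNF pair, and their log2 ratios with TNF were 0.08 for Sirt2 and -0.07 for Sirt7, neither past the rule below. Sirt1, Sirt3, Sirt4 and Sirt5 lay under 200 reads, with log2 ratios of -0.05, 0.28, -0.14 and -0.39 whose intervals all included 0. Rspo1, which encodes the secreted Wnt amplifier R-spondin 1, was also under 200 reads. It had 35 reads with Sirt6 siRNA and 65 with control siRNA under TNF (log2 ratio -1.04, interval -1.72 to -0.47), and 115 and 97 reads in medium (0.16, -0.24 to 0.56).

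The libraries held 21755516 gene-assigned reads for Sirt6 siRNA with TNF and 18793708 for control siRNA with TNF, and 23749380 and 22422365 in the medium pair. Of 30 markers of colon epithelium, 23 were under 1 RPM with Sirt6 siRNA and TNF and 24 with control siRNA and TNF, and 14 and 16 had no read. The intestinal transcription factors Cdx1 and Cdx2 had no read in either library, and Epcam, the epithelial adhesion molecule, had 2 reads with Sirt6 siRNA and 0 with control siRNA. The keratins Krt8, Krt18 and Krt19 made up most of the summed marker level, 1193 RPM with Sirt6 siRNA and 1349 RPM with control siRNA. Fibroblast markers summed to 7964 and 7850 RPM, and mesothelial markers, keratins among them, to 4631 and 4608 RPM, in the same order. Immune cell markers summed to 46.7 and 44.8 RPM, with Ptprc, which encodes CD45, at 4 and 0 reads. In bulk libraries such as these, fewer cells of a type and less RNA per cell cannot be told apart.

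Differences between the libraries were small. A gene was said to have risen or fallen where the ratio, computed with a prior count of 2, was at least 1.3 either way and a 95% interval for the ratio of reads (exact, conditional binomial) did not contain 1. By this rule 151 genes rose (1.49% of those described) and 146 fell (1.44%), 297 in all (2.92%). Every count of list members that rose or fell, given below, is to be read beside these shares. The share that passed differed with depth, from 7.49% at 200 to 400 mean reads to 0.668% at 1600 to 3200. Lists were not matched for depth. Scaled by library totals, 117 rose and 173 fell, and by upper quartile 116 and 174, so the balance of rises and falls rests on the scaling. At a ratio of 1.5 these numbers were 23 (0.226%) and 29 (0.285%), together 0.512%, and at a ratio of 2 they were 0 and 2 (0.0197%), Sirt6 itself and Cx3cl1. Within 1.1-fold of equality lay 6963 genes, or 68.5%. Log2 ratios ran from -1.41 to 0.87 around a median of 0.013, with an SD of 0.159.

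**Figure D1:**
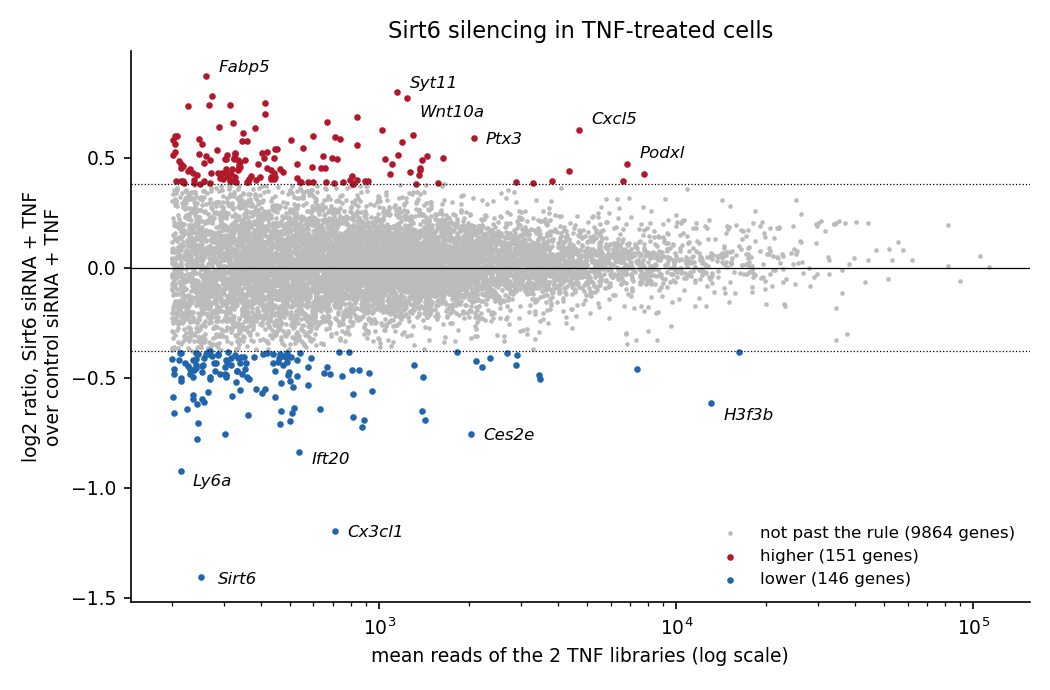
Log2 ratio of Sirt6 siRNA with TNF over control siRNA with TNF (vertical axis) against the mean reads of both libraries (horizontal axis, log scale); each point is 1 of 10161 genes. Dotted lines mark the 1.3-fold limits, red points the 151 genes higher and blue points the 146 genes lower; most points lie between the lines at every depth, and Sirt6 and Cx3cl1 lie lowest.

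The spread of the ratios was wider than counting alone gives at every depth. Genes with 200 to 400 mean reads had an SD of 0.216 in log2 ratio, where counting alone gives 0.122, and 7.49% of them passed the rule. Between 1600 and 3200 reads the SD was 0.114 against 0.0444 from counting, and 0.668% passed. At 6400 reads or more the SD was 0.114 against 0.0201, and 1.13% passed. With 1 library a group, the part of this extra spread that lies between cultures or library preparations cannot be told apart from the siRNA. Ratios had little relation to base composition, with a Spearman correlation across genes of 0.054 with transcript GC content for TNF, against 0.291 for the medium pair.

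**Figure D2:**
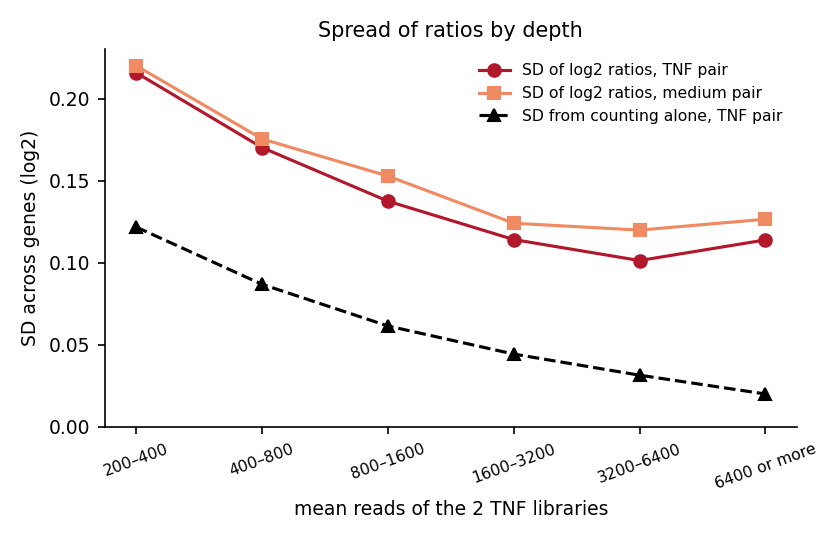
SD across genes of the log2 ratio (vertical axis) by mean reads of the 2 TNF libraries (horizontal axis, 6 bins), for the TNF pair, for the medium pair, and as counting alone gives for the TNF pair. The SD of the TNF pair falls to 0.101 at 3200 to 6400 reads and stays above the counting line in every bin.

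Secreted inflammatory factors moved in both directions. The chemokine list had 10 members described, of which Cxcl5 rose and Cx3cl1 fell. Cx3cl1, or fractalkine, a membrane-bound chemokine for cells that carry Cx3cr1, had 22 normalised RPM with Sirt6 siRNA and 50.6 with control siRNA under TNF, and 4.07 and 12.8 in medium. With TNF the log2 ratio was -1.20 (interval -1.36 to -1.04), the lowest after Sirt6. Both Sirt6 siRNA libraries were thus below the control library of their own pair. Cxcl5, a neutrophil chemokine, had 281 RPM with Sirt6 siRNA and 182 with control siRNA under TNF, and 174 and 126 in medium. It rose by a log2 ratio of 0.62 with TNF (0.56 to 0.69). The other 8 chemokines lay between -0.19 and 0.31 with TNF and did not pass. Among them, named after their values were seen, Ccl2, a monocyte chemokine, had 1641 RPM with Sirt6 siRNA and 1605 with control siRNA (log2 ratio 0.03), and Cxcl10, a T cell chemokine, had 319 and 257 RPM (0.31).

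Of 46 described members of the NF-kB pathway and target list, Il6 rose and Csf2, Lcn2, Mmp10 and Mmp3 fell, and the list's median log2 ratio was -0.05 beside 0.01 for all genes. In medium 1 of the 46 rose and 8 fell, where 1.27% and 1.92% of all genes did. The list's median in medium was -0.15, beside -0.01 for all genes. Il6, the acute-phase cytokine interleukin 6, had 20.3 normalised RPM with Sirt6 siRNA and 13.6 with control siRNA under TNF, and 7.94 and 3.97 in medium. Its log2 ratio was 0.57 with TNF (0.35 to 0.81) and 0.98 in medium. The higher library was the Sirt6 siRNA one in both pairs. Csf2, the gene of the myeloid growth factor GM-CSF, had 11.4 RPM with Sirt6 siRNA and 19.3 with control siRNA under TNF (log2 ratio -0.76, interval -1.0 to -0.52). In medium it had only 5 and 11 reads, too few for a call. Lcn2, the iron-sequestering lipocalin 2, had 19.4 and 31.5 RPM under TNF (-0.70, -0.88 to -0.51) and 5.53 and 8.04 in medium (-0.53). The pathway's own parts, named after their values were seen, did not pass. The subunits Nfkb1, Nfkb2, Rel, Rela and Relb had log2 ratios from -0.07 to 0.13, and the feedback inhibitors Nfkbia and Tnfaip3 had 0.08 and -0.07. The adhesion molecules Icam1 (-0.16) and Vcam1 (-0.08) did not pass either.

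The promoter bases just before the start of the 5 genes of this list that passed are shown because the genes stand on 1 list and moved in opposite directions. They were taken from RefSeq on GRCm38.p6, and each run is the 150 bases that end 1 base before the gene's start, 5′ to 3′ on the gene's strand. Capitals mark matches, on either strand, to the NF-kB consensus and to the AP-1 motif TGANTCA.
Il6, chr5:30012964-30013113, plus strand: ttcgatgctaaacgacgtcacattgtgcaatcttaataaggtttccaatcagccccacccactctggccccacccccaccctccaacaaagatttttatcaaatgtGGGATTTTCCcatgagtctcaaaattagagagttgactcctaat
Csf2, chr11:54249900-54250049, minus strand: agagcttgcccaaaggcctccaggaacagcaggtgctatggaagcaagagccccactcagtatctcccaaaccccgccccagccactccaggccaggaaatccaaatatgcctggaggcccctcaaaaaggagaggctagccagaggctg
Lcn2, chr2:32387740-32387889, minus strand: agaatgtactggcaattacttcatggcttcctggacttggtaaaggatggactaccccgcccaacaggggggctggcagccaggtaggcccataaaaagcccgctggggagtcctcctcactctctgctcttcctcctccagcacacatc
Mmp3, chr9:7445672-7445821, plus strand: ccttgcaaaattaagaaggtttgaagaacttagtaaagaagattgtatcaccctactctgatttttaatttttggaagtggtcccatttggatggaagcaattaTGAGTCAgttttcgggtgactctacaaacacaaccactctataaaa
Mmp10, chr9:7502192-7502341, plus strand: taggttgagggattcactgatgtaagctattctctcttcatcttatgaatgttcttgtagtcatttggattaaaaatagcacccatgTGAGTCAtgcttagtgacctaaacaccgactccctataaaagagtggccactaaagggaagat
Il6 held the NF-kB match GGGATTTTCC at 44 to 35 bases before its start. In a wider window around its start, outside the bases shown, Il6 also held 1 AP-1 match. Mmp3 and Mmp10 each held the AP-1 match TGAGTCA, at 46 to 40 and at 63 to 57 bases before their starts. The Csf2 and Lcn2 windows held neither. Of 32851 mouse promoters in the same window, 4.6% held an NF-kB match and 4.24% an AP-1 match. No match of one motif overlapped a match of the other in these 5 windows.

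Mmp3 and Mmp10 encode stromelysins, secreted proteases that cut matrix proteins. Mmp3 had 55.7 normalised RPM with Sirt6 siRNA and 75.8 with control siRNA under TNF, and 15.9 and 25.1 in medium. The log2 ratio was -0.44 with TNF (-0.56 to -0.33) and -0.66 in medium. Mmp10 had 13.9 and 20.5 RPM under TNF (-0.56, -0.78 to -0.34), but 1.50 and 1.55 RPM in medium (-0.04, -0.76 to 0.67). Both fell with TNF, and the interval of Mmp10 in medium included its value with TNF. Of the 50-base sequences of Mmp3 and Mmp10, 8.39% and 8.37% also occur in other genes, most often in each other, so reads could be split between them. Of 27 described matrix proteases and inhibitors, 2 others rose. Serpinb2, the plasminogen activator inhibitor 2, had 369 reads with Sirt6 siRNA and 207 with control siRNA under TNF (0.64, 0.40 to 0.90), and 20 and 24 in medium. Mmp2, gelatinase A, rose by 0.38. The list's median was -0.04.

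Other secreted and surface defence genes also differed. Ptx3, a soluble pattern-recognition protein, had 123 RPM with Sirt6 siRNA and 81.6 with control siRNA under TNF, and 40.5 and 29.5 in medium. It rose by a log2 ratio of 0.59 with TNF (0.50 to 0.68). Ly6a, or Sca-1, a surface protein induced by interferon, had 7.5 and 14.3 RPM under TNF (-0.92, -1.22 to -0.65) and 7.69 and 18.7 in medium (-1.27). Of the 50-base sequences of Ly6a, 19% also occur in other genes, most often Ly6c1.

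**Figure D3:**
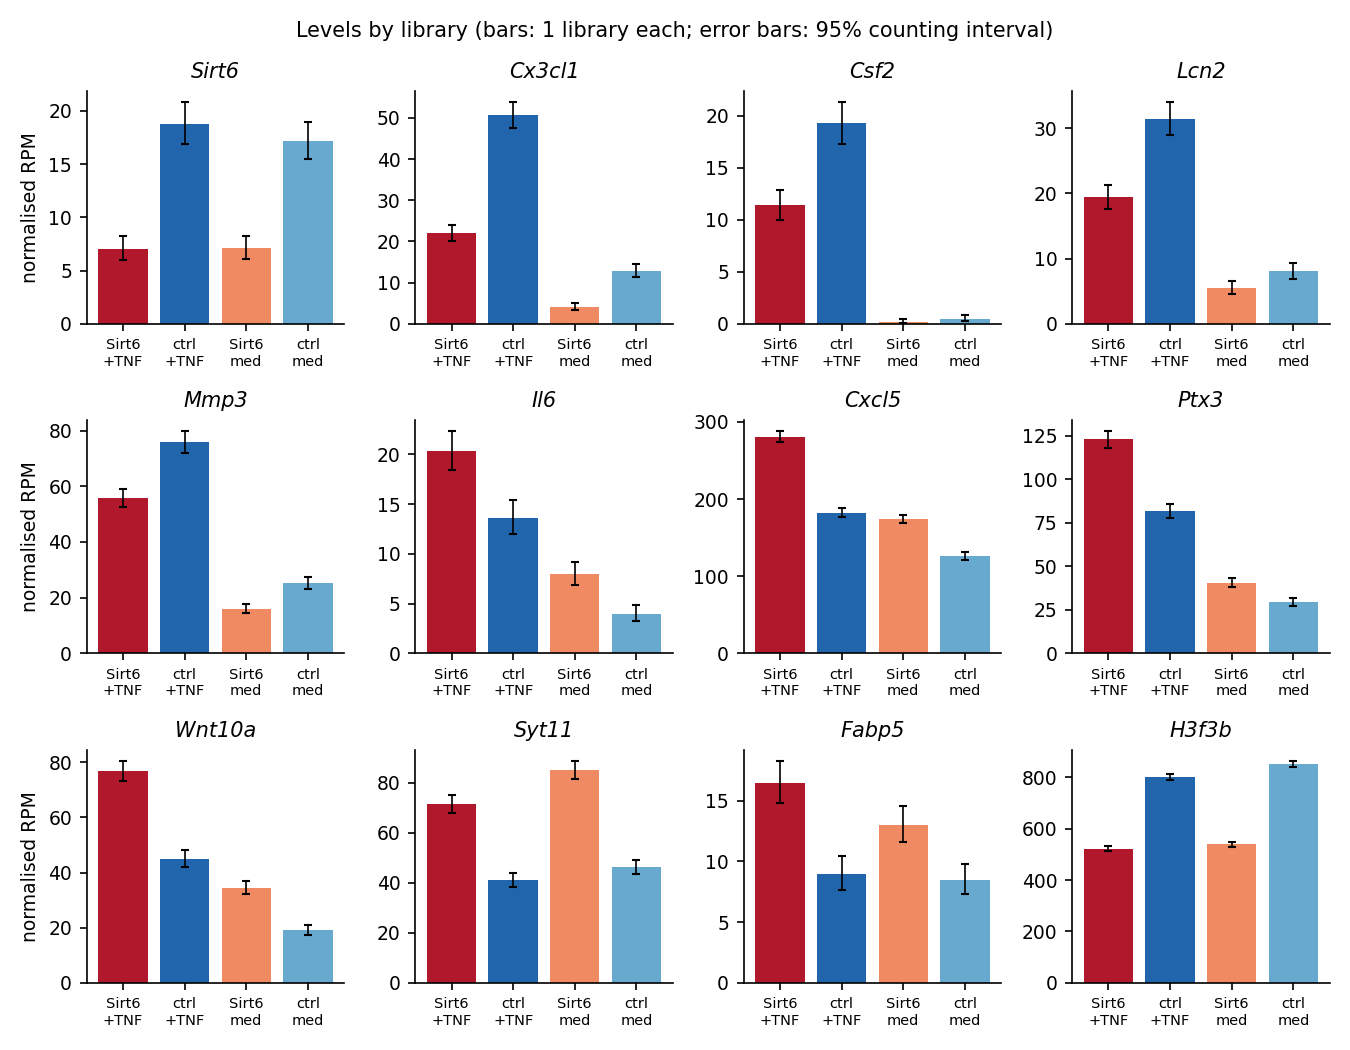
Normalised RPM (vertical axis, from 0) of 12 genes in each of the 4 libraries, with 95% counting intervals of that library's reads; each bar is 1 library. Within each pair the Sirt6 siRNA bar is the lower one for Sirt6, Cx3cl1, Csf2, Lcn2, Mmp3 and H3f3b and the higher one for Il6, Cxcl5, Ptx3, Wnt10a, Syt11 and Fabp5.

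Interferon-stimulated genes hardly differed under TNF. Of 64 described, 1 fell and none rose, against 1.44% and 1.49% of all genes, and the list's median log2 ratio was -0.04. The gene that fell was Trim21, an antibody receptor and ubiquitin ligase of the cytosol, with 440 reads with Sirt6 siRNA and 542 with control siRNA under TNF (-0.49, -0.67 to -0.31). In medium the list's median was -0.22, and 12 members fell, Trim21 among them. The difference of the ratios, TNF minus medium, was past 1.3-fold with an interval that left out 0 for 10 of the 64, each with the TNF ratio the higher, where 2.06% of all genes were so. Irf7, a transcription factor of the interferon response named after its values were seen, had 132 RPM with Sirt6 siRNA and 141 with control siRNA under TNF (-0.09), and a log2 ratio of -0.64 in medium (difference 0.54, 0.42 to 0.67). The 23 genes of MHC class I and the immunoproteasome had none past the rule with TNF and a median of -0.07. Of 31 genes of TNF receptors and their signalling none passed, with a median of -0.03, and of 30 apoptosis regulators none passed, with a median of 0.01.

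Wnt pathway genes included 4 that rose and none that fell among 25 described, with a list median of 0.03. Among all genes 1.49% rose and 1.44% fell, and the median was 0.01. Wnt10a, a secreted ligand of the canonical pathway, had 76.8 normalised RPM with Sirt6 siRNA and 45.0 with control siRNA under TNF, and 34.5 and 19.2 in medium. The Wnt10a log2 ratio was 0.77 with TNF (0.65 to 0.89) and 0.84 in medium. It was the higher one with Sirt6 siRNA in both pairs. The ligand Wnt9a rose by 0.44 (0.22 to 0.68), the secreted Wnt modulator Sfrp2 by 0.52 (0.32 to 0.73) and the receptor Fzd1 by 0.39 (0.21 to 0.57). None of these 3 passed in medium, where their log2 ratios were 0.30, 0.38 and 0.17. Daam2, a formin that binds Dishevelled, rose by 0.70 with TNF and 0.47 in medium. The Wnt target genes Myc and Ccnd1, named after their values were seen, did not pass, at -0.03 and -0.21.

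Among 28 described members of the list of AP-1 and immediate early factors, Fos, Jund, Klf9 and Ctgf rose and none fell. The list median was 0.03, and the share of all genes that rose was 1.49%. Fos, the partner of Jun in AP-1, had 13.2 RPM with Sirt6 siRNA and 9.61 with control siRNA under TNF, and 21.7 and 14.6 in medium. It rose by 0.45 with TNF (0.18 to 0.73). Jund, another Jun-family AP-1 subunit, had 248 and 183 RPM under TNF (0.44, 0.38 to 0.50) and 290 and 212 in medium (0.45). However, 48.3% of its 50-base sequences also occur in transcripts of other genes, most often Gm11175, so its reads are uncertain. Klf9, a zinc-finger repressor, rose by 0.50. Among 11 described circadian clock genes, Nfil3, a basic leucine zipper repressor, rose by 0.39 and none fell, with a list median of -0.09.

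In the list of the EGF family and feedback genes of the ERK kinase pathway, 3 of 29 described fell and none rose. The list's median was -0.01. The share of all genes that fell was 1.44%. Dusp4, a nuclear phosphatase of MAP kinases, had 58.6 RPM with Sirt6 siRNA and 82.6 with control siRNA under TNF, and 59.8 and 87.8 in medium. This gave a log2 ratio of -0.50 with TNF (-0.61 to -0.39) and -0.55 in medium. Etv5, an ETS transcription factor downstream of ERK, fell by 0.49 and Dusp5, an ERK phosphatase, by 0.38. Zak, a kinase upstream of the stress MAP kinases, had 145 and 206 RPM under TNF (-0.50, -0.57 to -0.44) and 118 and 202 in medium (-0.77).

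Some desmosome and keratin transcripts fell. Dsp, or desmoplakin, which ties desmosomes to keratin filaments, had 31.6 RPM with Sirt6 siRNA and 50.7 with control siRNA under TNF, and 62.5 and 100.1 in medium. The log2 ratio of Dsp was -0.68 in both pairs. Dsg2, a desmosomal cadherin, had 27.4 and 38.3 RPM under TNF (-0.48, -0.64 to -0.32). These 2 were the members that fell among 25 described genes of junctions and cadherins, none of which rose, and the list's median was 0.04. Krt18, a type I keratin of simple epithelia, had 313 and 430 RPM under TNF (-0.46, -0.51 to -0.41) and 433 and 612 in medium (-0.50). Its partner Krt8 had a log2 ratio of -0.33 with TNF, short of the rule, and Krt19 one of 0.20. The summed level of the colon epithelial markers, which hold these keratins, was 1193 RPM with Sirt6 siRNA and 1349 with control siRNA, and its part in the fall of the desmosome genes was not tested. Podxl, a sialylated surface protein of podocytes and mesothelium, had 391 and 282 RPM under TNF (0.47, 0.42 to 0.52) and 567 and 383 in medium (0.57). Bnc1, a zinc-finger factor on the mesothelial list, rose by 0.39.

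Matrix and contractile genes were split. Of 16 collagens, Col27a1, a fibrillar collagen, rose by 0.42 (0.31 to 0.53), while Col4a1, of basement membranes, and Col8a1, a short-chain collagen, fell by 0.38 (interval -0.41 to -0.35) and by 0.39 (-0.59 to -0.20). Col4a1 had 713 RPM with Sirt6 siRNA and 929 with control siRNA under TNF, and 636 and 861 in medium. Of 32 matrix glycoproteins, 3 fell: Bgn, the proteoglycan biglycan, by 0.47, Ecm1 by 0.42 and Nid1, a basement membrane linker, by 0.39. None of the list rose, and its median was 0.02, with a sign that turned under other scalings. Acta2, smooth muscle actin, was the only member to pass among 39 actin and SRF target genes. It had 145 RPM with Sirt6 siRNA and 204 with control siRNA under TNF, and 150 and 224 in medium (log2 ratio -0.49 with TNF). Ctgf, an immediate early gene and YAP target that encodes a matricellular protein, rose by 0.39 (371 and 283 RPM). In the TGF-beta and BMP list of 33, Id2, a BMP target, rose by 0.51, while Grem1, a secreted BMP antagonist, fell by 0.49 (-0.76 to -0.22) with TNF and had a log2 ratio of 0.08 in medium. The difference for Grem1 was -0.57 (-0.93 to -0.20).

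Of 22 genes of glycolysis and glucose uptake, 2 rose, none fell, and 19 had a ratio above 1. Among all genes 1.49% rose, and the median log2 ratio was 0.01. The list's median log2 ratio was 0.11 with TNF and 0.10 in medium. Pfkp, the platelet type of phosphofructokinase, had 51.4 RPM with Sirt6 siRNA and 39.1 with control siRNA under TNF, and 52.6 and 44.9 in medium. It rose by 0.39 with TNF (0.26 to 0.53). Slc16a3, the lactate exporter MCT4, had 214 and 163 RPM under TNF (0.39, 0.33 to 0.46) and 202 and 156 in medium (0.38). Both lost the call under scaling by library totals and by upper quartile. Gapdh, named after its values were seen, had 2148 and 1860 RPM under TNF (0.21, 0.19 to 0.23), under the rule though its counting interval was narrow, and the glucose transporter Slc2a1 had 143 and 142 RPM (0.01). Of 20 hypoxia-response genes none passed, with a median of 0.07.

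Among lipid genes, of 21 fatty acid synthesis genes, Elovl6, an elongase of saturated fatty acids, and Scd2, a desaturase, rose and none fell. Scd2 had 440 RPM with Sirt6 siRNA and 328 with control siRNA under TNF, and 1086 and 860 in medium. It rose by a log2 ratio of 0.42 with TNF (0.38 to 0.47) and had a ratio of 0.34 in medium. Elovl6 rose by 0.54 with TNF (0.37 to 0.73). Of 28 cholesterol synthesis and transport genes none passed with TNF, but 20 had a ratio above 1. Their median was 0.13, beside 0.19 in medium, where all genes had medians of 0.01 with TNF and -0.01 in medium. Cyp51, Dhcr7 and Sqle, enzymes of the sterol pathway named after their values were seen, each had a log2 ratio of 0.33. Fabp5, a fatty acid carrier, had the highest log2 ratio of all genes described. It had 16.5 RPM with Sirt6 siRNA and 8.97 with control siRNA under TNF, and 13 and 8.48 in medium (0.87, 0.61 to 1.15, with TNF). It was the member to pass among 24 genes of fatty acid oxidation and PPAR targets, whose median was 0.03. The medians of the glycolysis, cholesterol and fatty acid synthesis lists were above 0 under every scaling tried. This was not particular to them. The medians of cytosolic ribosomal proteins, the proteasome, heat shock chaperones, the TCA cycle and other lists were above 0 under every scaling too.

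Genes of the unfolded protein response lay mostly above 1. Of 33 described, 28 did, Xbp1 rose, none fell, and the median was 0.13 with TNF and 0.09 in medium. All genes had medians of 0.01 with TNF and -0.01 in medium, and 1.49% rose with TNF. Xbp1, the transcription factor spliced by Ire1, had 78.1 RPM with Sirt6 siRNA and 57.0 with control siRNA under TNF, and 79.7 and 60.2 in medium. It rose by 0.45 with TNF (0.34 to 0.56) and 0.40 in medium. Chaperones of the endoplasmic reticulum, named after their values were seen, did not reach the rule: Pdia6 had a log2 ratio of 0.32, Hyou1 of 0.31 and Hspa5, or BiP, of 0.30 with TNF. Hspa5 had 1385 RPM with Sirt6 siRNA and 1121 with control siRNA. By contrast, none of 27 heat shock chaperones passed, with a median of 0.04, and none of 32 proteasome genes, also with a median of 0.04.

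The 13 transcripts encoded by mitochondrial DNA all had a ratio above 1 with TNF, from 0.02 to 0.25 in log2, but none passed. Their median was 0.16 with TNF and -0.11 in medium. The difference of the ratios passed for 2 of them, mt-Nd6 (0.39, 0.32 to 0.47) and mt-Atp8 (0.43, 0.36 to 0.49). Most of the 13 come from a shared precursor and are not independent of each other. The list's median GC content was 37.1%. Genes in the lowest of 10 GC bins had median log2 ratios of -0.01 with TNF and -0.08 in medium. Over all scalings tried, the centring of GC bins among them, the mitochondrial list's median with TNF lay between 0.14 and 0.17. The part of GC content in its medium median and in the difference of the pairs was not tested. Of 53 nuclear genes of oxidative phosphorylation none passed, with a median of 0.06. Of 28 genes of the TCA cycle, Idh1, the cytosolic isocitrate dehydrogenase, rose by 0.38 and the median was 0.07.

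H3f3b, 1 of 2 genes for the replacement histone H3.3, had 523 RPM with Sirt6 siRNA and 802 with control siRNA under TNF, and 539 and 854 in medium. Its log2 ratio was -0.62 with TNF (-0.65 to -0.58) and -0.66 in medium. Both Sirt6 siRNA libraries were below both control libraries. H3f3a, the other H3.3 gene, named after its values were seen, had 184 and 172 RPM under TNF (0.10). Hist1h1c, a linker histone, fell by 0.42 with TNF (-0.66 to -0.19) and had a ratio of -0.41 in medium. Of the 11 described histone genes on the list 2 fell and none rose, 9 had a ratio below 1, and the median was -0.14, beside 0.01 in medium. The list left out other histone genes, of which 3 genes of the H2A cluster, named after their values were seen, fell with TNF: Hist1h2ap by 0.41, Hist1h2ag by 0.41 and Hist1h2ao by 0.39. Their log2 ratios in medium were 0.21, 0.23 and 0.19, and as members of a family of near-identical copies their counts are uncertain. None of 33 chromatin regulators that work with Sirt6 passed, with a median of -0.02.

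In DNA repair, Xrcc2, a factor of homologous recombination, fell and was the member to pass among 34 genes of double-strand break repair. It had 18.7 RPM with Sirt6 siRNA and 25.3 with control siRNA under TNF, and 23.3 and 20.6 in medium. Its log2 ratio was -0.43 with TNF (-0.63 to -0.24) and 0.18 in medium, a difference of -0.61 (-0.87 to -0.35). The list's median was -0.06, and 1 call among 34 genes is near the 2.92% of all genes that passed. Of 56 cell cycle genes, Cdkn1b, the inhibitor p27, rose by 0.50 (0.34 to 0.66) and none fell, with a median of -0.02. Of 32 p53 targets, Ptp4a3, a phosphatase, fell by 0.56.

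In the NRF2 list of antioxidant genes, 3 fell and none rose among 34 described, and the median was -0.04. Falls made up 1.44% of all genes. Nfe2l2, NRF2 itself, had 102 RPM with Sirt6 siRNA and 136 with control siRNA under TNF, and 108 and 131 in medium. This gave a log2 ratio of -0.41 with TNF (-0.49 to -0.33) and -0.28 in medium. Nqo1, a quinone reductase, fell by 0.43 and Osgin1, an oxidative stress-induced growth inhibitor, by 0.60. In the list of aminoacyl-tRNA synthetases and amino acid stress genes, 3 of 33 fell: Sars, the seryl-tRNA synthetase, by 0.44, Slc1a4, a neutral amino acid transporter, by 0.43 and Nupr1, a stress-induced nuclear protein, by 0.38. Igfbp6, a binding protein of insulin-like growth factors, fell by 0.66 and Ago2, the slicer of RNA interference, by 0.45 (94.2 and 129 RPM under TNF).

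**Figure D4:**
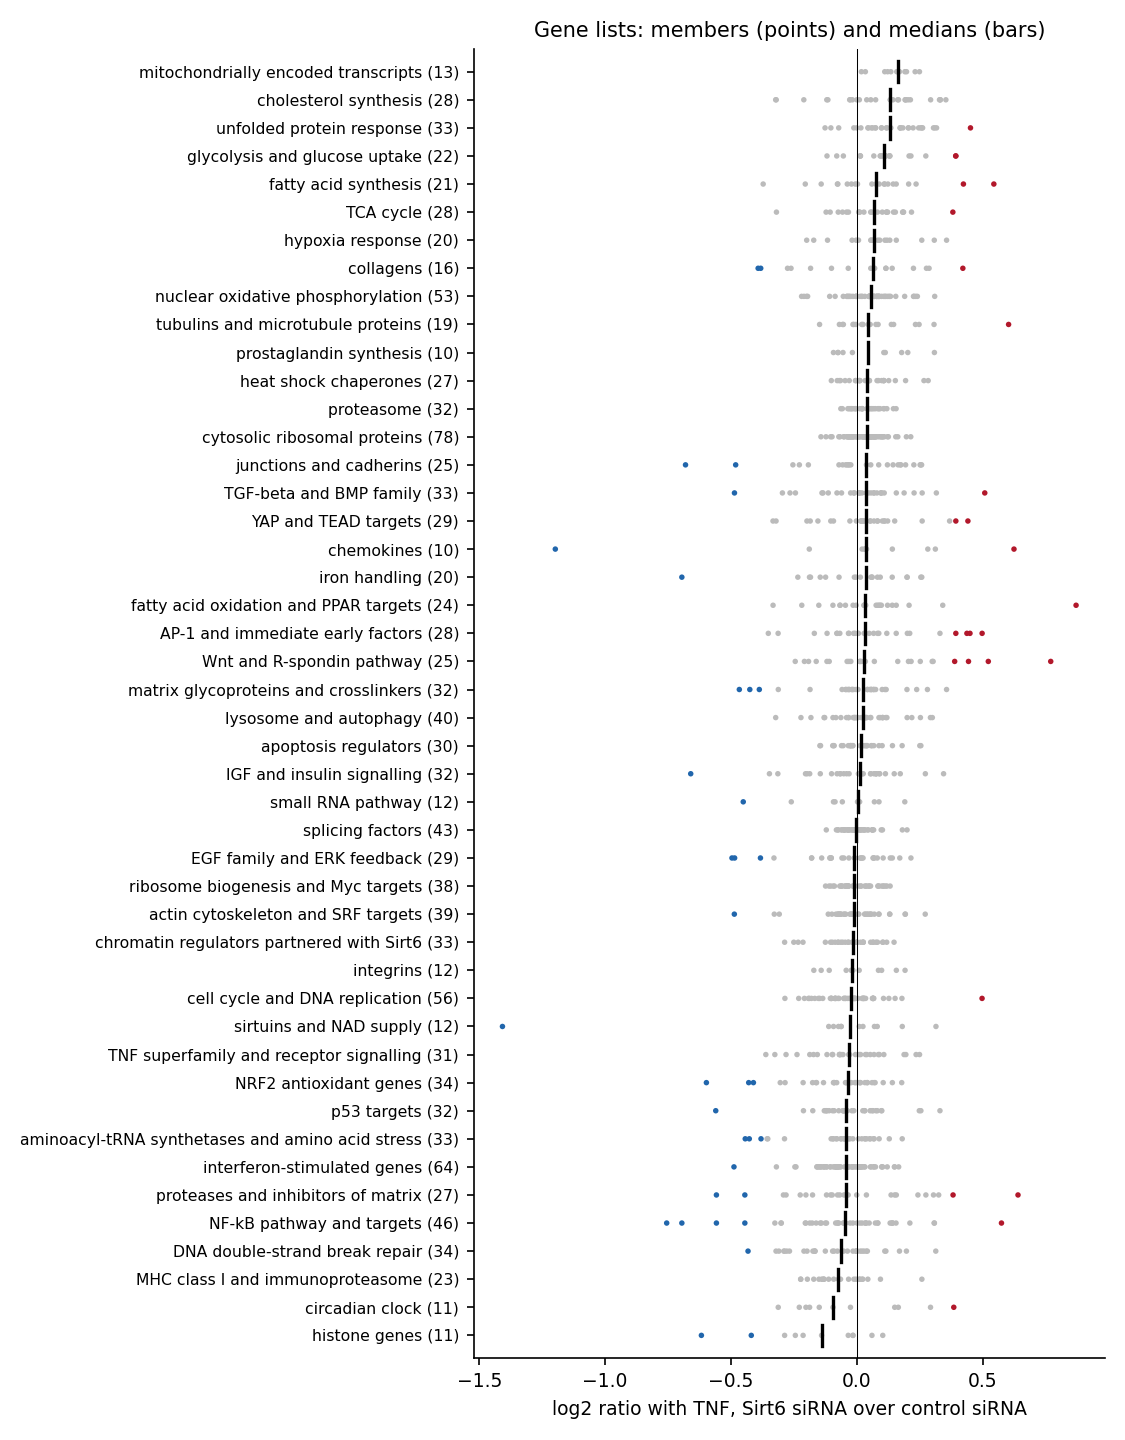
Log2 ratio with TNF of the described members (points) of 46 gene lists, with the number described in brackets and the list median as a black bar; red members rose, blue members fell and grey members did not pass. List medians lie between -0.14 (histone genes) and 0.16 (mitochondrially encoded transcripts), close to the all-gene median of 0.013.

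The 53 lists held 1310 described genes, of which 26 rose and 32 fell, or 4.43% beside the 2.92% of all genes. Several large lists had no member past the rule: 78 cytosolic ribosomal proteins with a median of 0.04, 38 genes of ribosome biogenesis with -0.01, 43 splicing factors with a median of 0.00 and 40 genes of lysosomes and autophagy with 0.02. These genes are well counted, and members of the ribosomal list lay between -0.14 and 0.21.

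Several of the firmest differences, by how far the counting interval lay from equality, were in genes on none of the lists. Syt11, a synaptotagmin of vesicle traffic, had 71.5 RPM with Sirt6 siRNA and 41.1 with control siRNA under TNF, and 85.2 and 46.2 in medium. Its log2 ratio was 0.80 with TNF (0.67 to 0.93) and 0.88 in medium. Gmppb, an enzyme that makes GDP-mannose, rose by 0.68 (50.8 and 31.6 RPM under TNF). However, 27.1% of its 50-base sequences are shared with other genes, most often its neighbour Rnf123. Uchl1, a neuronal deubiquitinase, rose by 0.62 and Bai2, an adhesion receptor, by 0.66. Medag rose by 0.74, with 34.8% of its 50-base sequences shared with other genes, most often Gm20488. Tmem108 rose by 0.58. Map1a, a microtubule-associated protein, rose by 0.60 and was the only member to pass among 19 tubulin and microtubule genes. Each of Uchl1, Bai2, Medag, Map1a and Tmem108 rose in medium too.

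On the lower side, Ift20, a part of the intraflagellar transport machinery of cilia, had 19.5 RPM with Sirt6 siRNA and 35.0 with control siRNA under TNF, and 17.3 and 38.7 in medium. Its log2 ratio was -0.84 with TNF (-1.02 to -0.66) and -1.16 in medium. Rabl5, another intraflagellar transport protein, went the other way and rose by 0.58 with TNF and 0.61 in medium. Ces2e, a carboxylesterase, had 76.8 and 130 RPM under TNF (-0.75, -0.85 to -0.66) and 75.9 and 118 in medium (-0.64). Aggf1, an angiogenic factor, fell by 0.72, Aldh2, the mitochondrial aldehyde dehydrogenase, by 0.69, and Esrra, a nuclear receptor of energy metabolism, by 0.69. Ppic, a cyclophilin of the secretory pathway, fell by 0.65 and Pik3r3, a regulatory subunit of PI3 kinase, by 0.64. All of these fell in medium as well. Reads of Etv5, Pik3r3, Dusp5 and Ctgf are uncertain to the extent that 24.5%, 23.2%, 20.5% and 17.2% of their 50-base sequences occur in transcripts of other gene models. The shares were 14.2% for Tmem108, 14.2% for Sirt5, 12.6% for Uchl1, 12.0% for Sfrp2, 10.6% for Sirt3 and 10.4% for Serpinb2.

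The remaining genes past 1.5-fold fell outside the naming rule, and the following were chosen after their values were seen. Peg3 and Peg10, which are imprinted and expressed from the paternal copy, both rose. Peg3 had 897 reads with Sirt6 siRNA and 521 with control siRNA under TNF, and 1692 and 1198 in medium (log2 ratio 0.59 with TNF, 0.41 in medium). Peg10 had 351 and 184 reads under TNF, and 416 and 296 in medium (0.74 and 0.40). Both were higher with Sirt6 siRNA in each pair. Spred3, of a family that restrains Ras signalling, had 297 and 156 reads under TNF (0.73, 0.46 to 1.03), and 266 and 223 in medium (0.17). Ppif, the cyclophilin of the mitochondrial permeability pore, had 379 and 545 reads under TNF (-0.71, -0.91 to -0.52), and 341 and 461 in medium (-0.52). Hus1, part of the checkpoint clamp that loads at DNA damage, had 437 and 598 reads under TNF (-0.64, -0.82 to -0.46), and 409 and 584 in medium (-0.60). Nfatc1, a calcium-regulated transcription factor, fell by 0.71 with TNF and by 0.39 in medium.

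The medium pair shares no library with the TNF pair, so it gives a second look at the same siRNA. Of the 151 genes that rose with TNF, 44 also rose in medium, 3 fell there and 135 had the same sign (89.4%). These 44 are 29.1% of the rises with TNF and 34.1% of the 129 rises in medium, where 1.27% of all genes rose. Of the 146 that fell with TNF, 59 also fell in medium, none rose there and 122 had the same sign (83.6%). They are 40.4% of the falls with TNF and 30.3% of the 195 falls in medium, where 1.92% of all genes fell. In medium 324 of the same genes passed 1.3-fold in either direction (3.19%) and 72 passed 1.5-fold (0.709%). Genes past both rules in 1 direction made up 0.433% of all genes for rises and 0.581% for falls. The median log2 ratio of the 151 was 0.45 with TNF and 0.26 in medium, and that of the 146 was -0.47 and -0.27. Genes chosen in the TNF pair thus had smaller median ratios in the medium pair, and the same held the other way: for the 129 the medians were 0.45 in medium and 0.26 under TNF, and for the 195 they were -0.49 and -0.23.

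**Figure D5:**
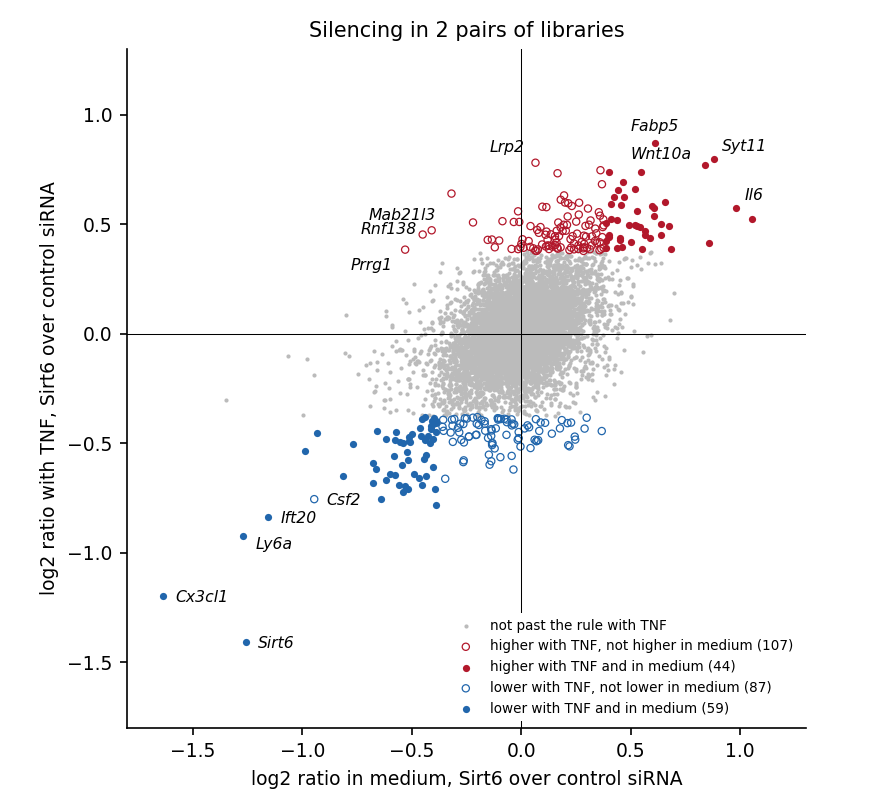
Log2 ratio of Sirt6 siRNA over control siRNA with TNF (vertical axis) against that in medium (horizontal axis), 1 point for each of 10161 genes. Filled red and blue points passed in both pairs the same way (44 and 59 genes), open ones with TNF but not that way in medium (107 and 87); Mab21l3, Prrg1 and Rnf138 lie in the upper left quadrant.

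Of the genes past 1.5-fold with TNF, 13 of the 23 that rose and 24 of the 29 that fell passed 1.3-fold the same way in medium, and 22 and 29 had the same sign. Across all described genes the ratios of the 2 pairs had a Pearson correlation of 0.475 and a Spearman correlation of 0.410, given as a description of genes, which are not replicates. The Spearman value was 0.353 for 5402 genes under 1000 mean reads and 0.525 for 4759 genes at or above it. What the pairs share is the siRNA, the culture conditions and the processing.

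The difference of the ratios, TNF minus medium, was past 1.3-fold with a counting interval that left out 0 for 209 genes with the TNF ratio higher (2.06%) and 166 with it lower (1.63%), 375 in all (3.69%). Of the 104 genes that rose with TNF and did not pass in medium, 29 had such a difference, and of the 87 that fell with TNF and did not pass in medium, 36 did. These genes were chosen by the same ratios that make up the difference, which favours such a difference in advance. A call in 1 pair alone is thus no sign that the pairs differed. Lrp2, or megalin, an endocytic receptor, was one of the 29. It had 17.0 RPM with Sirt6 siRNA and 9.83 with control siRNA under TNF, and 22 and 21 in medium, a log2 ratio of 0.78 with TNF (0.53 to 1.05) and 0.07 in medium. Its difference was 0.72 (0.41 to 1.03). Serpinb2 had a difference of 0.99 (0.11 to 1.87), with few reads in medium. Cx3cl1 fell in both pairs, and the fall was the smaller with TNF (difference 0.45, 0.09 to 0.82). Ccl20, a chemokine for cells that carry Ccr6 named after its values were seen, had 975 reads in both TNF libraries (log2 ratio -0.19) but 49 and 91 in medium (-0.95), a difference of 0.78 (0.27 to 1.3). The intervals cover counting error only, and the spread of the ratios was wider than counting alone gives at every depth.

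Averaged over both pairs, the siRNA term of an additive edgeR quasi-likelihood model passed a Benjamini-Hochberg adjusted p of 0.05 for 481 described genes higher (4.73%) and 426 lower (4.19%), 907 in all (8.93%), with 1 residual degree of freedom. DESeq2's Wald test of the same term passed 111 genes, 58 higher and 53 lower, all among edgeR's 907. Of the 151 genes that rose with TNF, 103 were among them in the same direction, and of the 146 that fell, 86. This model uses the TNF pair too, so the counts are no independent check. In edgeR's fit the log2 ratio averaged over both pairs was -1.34 for Sirt6, -1.34 for Cx3cl1, 0.80 for Wnt10a and 0.74 for Il6. The error of this model comes from how far the pairs differ and not from replicates, so its p-values do not measure the spread between cultures.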

How the data were processed

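Polyadenylated RNA of 4 YAMC cultures was sequenced (per the labels' protocols, NEBNext Ultra libraries), 1 library for each siRNA with TNF and 1 for each without. The deposited table gives raw read counts per gene for 29179 genes, per the file headers. A second set of deposited columns is headed RPKM, but each value equals the count divided by the library total and scaled to 1000000 (within 0.0005), so it is RPM with no length term. CASAVA, Bowtie 1.0.1 and edgeR were named in the submitters' processing notes. The genome build, annotation and read counter of the table are not given in the sources used here. Of the identifiers, 27928 were matched in a table of names, and 27 names that had been turned into dates were restored.

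Library sizes were scaled by TMM over 15274 genes that reached 1 RPM in some library (edgeR 4.0.16, R 4.3.3), and ratios, intervals and lists were computed in Python 3.11.15 with scipy 1.17.1. TMM factors lay between 0.981 and 1.01. Zero reads leave room for 3, which is 0.138 RPM with Sirt6 siRNA and TNF and 0.160 RPM with control siRNA and TNF. Reads carry no molecular identifiers, so intervals cover counting error only. No p-value was given for 2 libraries. Intervals of the difference of ratios used the delta method after adding 0.5 to every count. The edgeR quasi-likelihood fit (siRNA and TNF as terms, Benjamini-Hochberg over 15274 genes) rests on a common biological coefficient of variation of 0.039, taken from how far the pairs differ and not from replicates. DESeq2 1.42.0 was an alternative. The 1.3-fold rule with its interval and the edgeR test were tried on simulated counts that used this fitted coefficient of variation. The difference of ratios and the DESeq2 test were not.

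GC content, length and shared 50-base sequences came from GENCODE M21 transcripts (98.7% of described genes matched), and promoters from RefSeq. The comparison, the 53 gene lists and the naming rule were chosen with earlier results of these data known. Named genes are Sirt6, the other sirtuins, Rspo1 and Cx3cl1, the 12 genes each way whose interval stayed farthest from 1 with TNF, the 12 each way that did so in both pairs, up to 4 called members of each list, and genes called in opposite directions, which gave 89. Of these, 14 shared over 10% of their 50-base sequences with another gene and none over 50%. The table holds 74 described genes whose counts equal those of another gene in all libraries.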

Additional observations from a re-analysis of the deposited data

Results flagged for a closer look

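Mab21l3, Prrg1 and Rnf138 passed the 1.3-fold rule in opposite directions in the 2 pairs of libraries, which is why they are given here. The difference was not tested over replicates, since there are none, and no cause was tested. Mab21l3 had 263 reads with Sirt6 siRNA and 168 with control siRNA under TNF (log2 ratio 0.45), and 151 and 195 reads in medium (-0.45). Prrg1, a membrane protein with a Gla domain, had 264 and 177 reads under TNF (0.38) and 192 and 262 in medium (-0.53). Rnf138, a ubiquitin ligase that takes part in DNA end resection, had 477 and 301 reads under TNF (0.47) and 341 and 427 in medium (-0.41). In all 3 the Sirt6 siRNA library was the higher one under TNF and the lower one in medium. Prrg1 lost its call with TNF under at least 1 other setting. Transcript GC content was 33.4% for Prrg1, 33.9% for Rnf138 and 50.7% for Mab21l3. Genes in the lowest of 10 GC bins had median log2 ratios of -0.01 with TNF and -0.08 in medium. The part of GC content in these opposite calls was not tested.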

How the results depend on the processing

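The number of genes past 1.3-fold with TNF was 297, and it was 290 to 300 under the other scalings, a prior count of 0.5, GC centring and the removal of genes with identical counts, but the balance moved. It was 151 higher and 146 lower with TMM, 117 and 173 by library totals, 116 and 174 by upper quartile, 157 and 141 by DESeq2 size factors, and 131 and 159 after centring GC bins. The number passing was 723 (308 higher, 415 lower) at a minimum of 50 reads, 1220 (486 and 734) with no minimum, 44 (27 and 17) at 1000 reads, 52 at a 1.5-fold threshold and 2 at 2-fold. The number past the rule the same way in both pairs was 103, and it was 15 at 1.5-fold and 2 at 2-fold. In the averaged model, DESeq2's Wald test passed 111 genes (58 higher, 53 lower), all among edgeR's 907. The cause of these moves was not tested, apart from the number of genes each limit admits. The difference of ratios passed for 361 to 382 genes, in alternatives chosen after seeing the data. Of 84 named genes described, 72 kept their side of the rule under every scaling, prior count and GC setting, none reversed, and 12 lost it under at least 1: Bnc1, Col4a1, Ctgf, Dusp5, Fzd1, Idh1, Mmp2, Nfil3, Nupr1, Pfkp, Prrg1 and Slc16a3. List medians changed sign under some scaling for the lists of lysosomes and autophagy, apoptosis, IGF signalling, matrix glycoproteins, splicing, small RNA and endothelial markers. No paired analysis was possible because each group has 1 library, numbered 1 in accession order only.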
